A study of Mus musculus with 9 samples.

Results

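Matrix metalloproteinases (MMPs), ADAM and ADAMTS proteases, the related ADAMTS-like proteins and the tissue inhibitors of metalloproteinases (TIMPs) were described in the left ventricle of neonatal mice after transverse aortic constriction (TAC), an operation that partly constricts the aortic arch with a suture and raises the pressure load on that ventricle. Members were the genes whose symbol was Mmp, Timp, Adam, Adamts or Adamtsl followed by a number, with Mmp8 and Adamts20 left out. The rule itself used no measured value, but it was chosen with earlier results of these data known. It took 55 of 16698 gene symbols: 4 TIMPs, 15 MMPs, 14 ADAMs, 17 ADAMTS and 5 ADAMTS-like genes. All mice were of the outbred ICR/CD1 strain and their left ventricles were taken at postnatal day 14. The groups were TAC at postnatal day 1 (day-1 TAC, 3 libraries), TAC at postnatal day 7 (day-7 TAC, 3 libraries) and sham operation (sham, 3 libraries), whose day of surgery is not given in the labels. Time since surgery and age at surgery cannot be told apart in the TAC groups, since all hearts were collected on the same postnatal day. The labels do not say whether each library came from a separate mouse or from pooled hearts, and p-values refer to the spread among the libraries alone, which may be technical.

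MMPs are zinc-dependent enzymes that cut collagens and other matrix proteins, either as secreted enzymes or anchored in the membrane. ADAMs are membrane proteins, and those with an active site release growth factors, cytokines and receptors from the cell surface. ADAMTS enzymes are secreted and cut proteoglycans or trim procollagens, and ADAMTS-like proteins share their ancillary domains without the protease domain. TIMPs bind the active site of MMPs, and of some of the other enzymes, and block it. In the heart the balance of enzymes and inhibitors is known to shape the turnover of the interstitial matrix.

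The feature that separates the proteases from the other members is a zinc-binding site in which 3 histidines, a glutamate and a small residue recur at fixed spacing. A search of the coding sequences in GENCODE M21 (build GRCm38) found such a site in 40 of 55 members: all 15 MMPs, 17 ADAMTS genes and the 8 ADAMs known as proteases. It found none in the 4 TIMPs, the 5 ADAMTS-like genes or the 6 ADAMs known to lack protease activity. The residue after the second spacer was glycine in 35 members, asparagine in 4 (Adamts1, Adamts4, Adamts9 and Adamts15) and serine in 1 (Adamts8). The search was widened from glycine to these 3 residues after the sequences had been read. The coding stretches of 10 proteases described below are shown so that the shared site and its variants can be compared, 5′ to 3′ on the coding strand, with the codons of the 3 histidines, the glutamate and the small residue in capitals.
Mmp2: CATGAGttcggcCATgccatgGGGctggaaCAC
Mmp14: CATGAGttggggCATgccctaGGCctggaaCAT
Mmp23: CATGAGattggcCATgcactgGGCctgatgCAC
Mmp11: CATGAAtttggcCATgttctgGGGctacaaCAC
Adam12: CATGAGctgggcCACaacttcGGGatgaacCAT
Adam17: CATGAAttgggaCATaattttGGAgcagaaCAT
Adamts2: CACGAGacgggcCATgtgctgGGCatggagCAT
Adamts5: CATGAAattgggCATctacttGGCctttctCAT
Adamts4: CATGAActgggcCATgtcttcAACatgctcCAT
Adamts8: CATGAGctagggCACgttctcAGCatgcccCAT

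The stretch spanned residues 239 to 249 of the Mmp14 protein, 424 to 434 of Adam17 and 378 to 388 of Adamts8.

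TIMP genes have no such site and are compared here by their promoters, since all 4 moved between groups. The windows below run from 250 bases before to 50 bases after the transcription start in RefSeq (build GRCm38.p6), 5′ to 3′ on the gene's strand. Both strands were searched for 4 motifs, with matches in capitals. The first was TGANTCA, the common form of the AP-1 motif. The second was TGAGTAA, a variant of it. The third was TATAAA, the core of the TATA box. The last was GGGCGG, a GC box. No 2 matches overlapped in these 4 windows.
Timp1, chrX:20869916-20870215, plus strand: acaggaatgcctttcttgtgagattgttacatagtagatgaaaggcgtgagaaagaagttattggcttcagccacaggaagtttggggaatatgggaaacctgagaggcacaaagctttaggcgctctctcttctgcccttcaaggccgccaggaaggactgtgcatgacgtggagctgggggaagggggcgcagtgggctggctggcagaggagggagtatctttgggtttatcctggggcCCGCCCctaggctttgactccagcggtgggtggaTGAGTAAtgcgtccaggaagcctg
Timp2, chr11:118355362-118355661, minus strand: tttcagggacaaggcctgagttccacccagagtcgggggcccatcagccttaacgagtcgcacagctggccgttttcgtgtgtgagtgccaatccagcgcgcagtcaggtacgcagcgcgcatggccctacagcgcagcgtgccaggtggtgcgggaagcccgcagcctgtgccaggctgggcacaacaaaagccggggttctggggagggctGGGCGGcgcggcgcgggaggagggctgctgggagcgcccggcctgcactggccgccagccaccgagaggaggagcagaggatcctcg
Timp3, chr10:86300162-86300461, plus strand: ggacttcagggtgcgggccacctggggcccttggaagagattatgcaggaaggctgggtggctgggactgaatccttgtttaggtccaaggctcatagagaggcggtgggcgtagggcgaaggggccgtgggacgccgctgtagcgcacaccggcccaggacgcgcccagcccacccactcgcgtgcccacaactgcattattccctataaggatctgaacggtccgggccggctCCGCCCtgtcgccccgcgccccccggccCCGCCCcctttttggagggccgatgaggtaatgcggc
Timp4, chr6:115252156-115252455, minus strand: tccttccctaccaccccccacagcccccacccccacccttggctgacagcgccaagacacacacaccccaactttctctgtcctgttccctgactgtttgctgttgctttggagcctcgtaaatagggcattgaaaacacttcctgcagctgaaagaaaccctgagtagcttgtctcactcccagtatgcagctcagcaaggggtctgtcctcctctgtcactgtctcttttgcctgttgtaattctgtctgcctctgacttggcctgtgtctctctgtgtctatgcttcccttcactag

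The Timp1 window held TGAGTAA, starting 27 bases after the start, and a GC box 8 bases before it. The Timp2 window held a GC box 37 bases before the start. The Timp3 window held GC boxes 15 bases before and 14 bases after the start, and the Timp4 window held none of the 4 motifs. TGAGTAA was present in 2.68% of 32851 RefSeq promoter windows of the same length and in 1 of the 33 members with an entry, Timp1. GGGCGG was present in 35.7% of all windows, TATAAA in 13.6% and TGANTCA in 7.81%. The windows were 55.0% G and C for Timp1, 68.7% for Timp2, 67.0% for Timp3 and 53.3% for Timp4. A match describes the letters of the window only.

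Expression was measured by single-end sequencing of 50 cycles from messenger RNA, and the deposited values are log2 values scaled by the trimmed mean of M-values (TMM). Recovered reads came to between 18535202 and 26521005 per library. A gene was tested where its log2 value was above 0 in at least 3 of 9 libraries, and it was called where limma gave a two-sided adjusted p (Benjamini-Hochberg over 13712 genes) under 0.05. Changes are given on the log2 scale, ± standard error. Of the 55 members, 45 were tested, and 43 of these were above 0 in all 9 libraries. Day-1 TAC replicate 3 had 10532 reads of Xist and 18 of Ddx3y, where the other libraries had at most 40 of Xist and at least 3312 of Ddx3y. The labels give no sex, and the part of this difference in the members' results was not tested. The mean correlation of a library with the others of its group was lowest for day-1 TAC replicate 1 (r = 0.979, across genes). In tissue samples such as these, fewer cells of a type and less RNA per cell cannot be told apart.

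Day-1 TAC gave 22 called members of 45 when set against sham, of which 10 were higher and 12 lower. Over all tested genes 34.8% were called in that comparison, 14.3% higher and 20.5% lower. Day-7 TAC gave 20 called members when set against sham, of which 12 were higher and 8 lower, beside 28.9% of all genes (13.8% higher, 15.1% lower). Between day-1 TAC and day-7 TAC 10 members were called, 3 higher and 7 lower with day-1 TAC, beside 16.7% of all genes (6.42% higher, 10.3% lower). As shares of the tested members these were 48.9%, 44.4% and 22.2%. The median size of the members' log2 fold change, whatever its sign, was 0.53 for day-1 TAC over sham, beside 0.26 over all tested genes. It was 0.36 for day-7 TAC over sham, beside 0.24, and 0.27 for the TAC groups, beside 0.20. The signed medians were 0.01, 0.11 and -0.11, and members moved in both directions. In every called member and comparison the libraries of the groups compared did not overlap. The same held for some members not called, such as Adamts10 with day-1 TAC against sham. The share of all genes without overlap was not counted, so this is not read as a trait of the members.

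Both comparisons with sham share the sham libraries, so their calls are given side by side. A total of 16 members were called in both, 9 higher in both (Timp1, Mmp14, Mmp23, Adam12, Adam15, Adamts2, Adamts4, Adamts8 and Adamtsl5) and 7 lower in both (Timp4, Mmp11, Adam22, Adamts5, Adamts7, Adamtsl3 and Adamtsl4). With day-1 TAC alone 6 were called against sham (Timp3, Mmp28, Adam17, Adamts3, Adamts6 and Adamts9), and with day-7 TAC alone 4 (Timp2, Adam9, Adam33 and Adamts14). Of these 10, the difference between the TAC groups was itself called for Timp2, Timp3, Mmp28, Adam17, Adamts3, Adamts6 and Adamts9 and not for Adam9, Adam33 and Adamts14. Adamtsl2 was called between the TAC groups only, and 18 members were called nowhere. Such patterns across comparisons were not counted over all tested genes, so they are not read as a trait of the members. Where the scale was set by upper quartiles or by library totals in place of TMM, the share of all calls with day-1 TAC against sham that were higher was 58.2% or 60.1%, against 41.1% as deposited, and the members' split was 12 higher and 12 lower under both. With day-7 TAC against sham it was 59.7% when scaled by library totals, against 47.7%, and the members' split stayed at 12 and 8. Between the TAC groups it was 56.8% under upper quartiles and 50.2% under library totals, against 38.5%, and 48.7% under quantile normalization, where 2 members were higher and 6 lower.

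**Figure D1:**
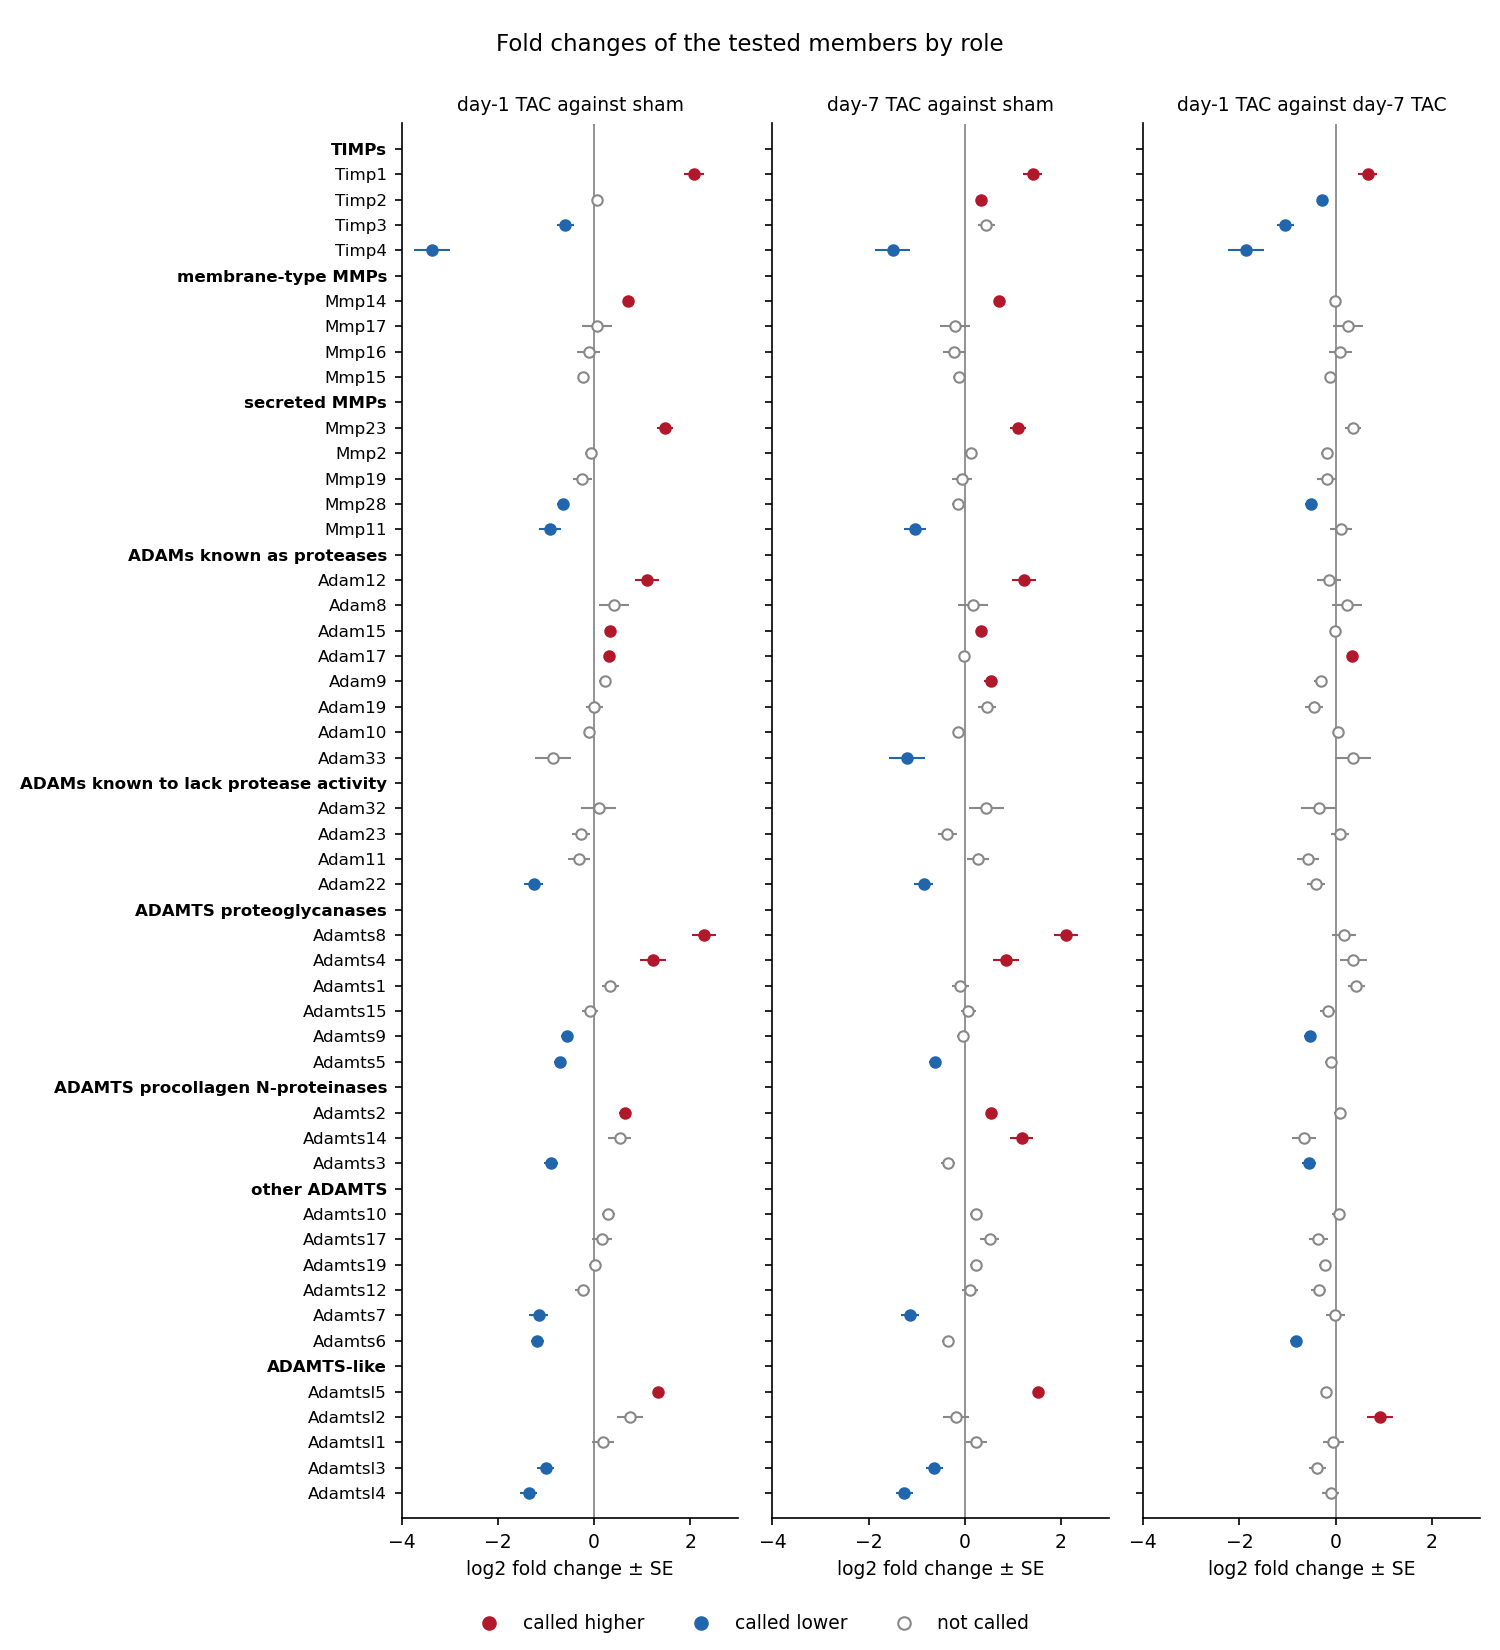
Log2 fold change (x axis, with standard error bars) of the 45 tested members (y axis, grouped by role) in the 3 comparisons, one panel each, where values above 0 are higher in the group named first. Filled points were called; Timp4 lies farthest left with day-1 TAC against sham (-3.36) and Adamts8 farthest right (2.29).

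Each of the 4 TIMP genes was called in at least 1 comparison, and they went in different directions. A matching share of all tested genes was not counted. Timp1, the inducible inhibitor, was higher in both TAC groups and Timp4, the inhibitor best known from heart tissue, was lower in both. Timp3, which binds to the matrix and also inhibits ADAM17, was lower with day-1 TAC. Timp2, a partner of Mmp14 in the activation of pro-Mmp2, was slightly higher with day-7 TAC. All 4 differed between the TAC groups at the threshold, though the calls of Timp1 and Timp2 there were lost in 12 of 20 alternative settings each.

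Timp1 had log2 values of 3.53, 2.87 and 2.92 (day-1 TAC), 2.52, 2.52 and 2.28 (day-7 TAC) and 1.10, 0.78 and 1.20 (sham). The 3 groups did not overlap, and day-1 TAC was the highest. Timp1 was 4.23-fold higher with day-1 TAC than with sham (log2 change of 2.08 ± 0.20, adjusted p = 0.000131) and 2.66-fold higher with day-7 TAC than with sham (log2 change of 1.41 ± 0.20, adjusted p = 0.000932). Between day-1 TAC and day-7 TAC it showed a log2 change of 0.67 ± 0.20, adjusted p = 0.0454. That last call ended without day-1 TAC replicate 1 (log2 change 0.46, adjusted p = 0.123), without day-1 TAC replicate 3 (log2 change 0.76, adjusted p = 0.0594), without day-7 TAC replicate 1 (log2 change 0.71, adjusted p = 0.0893), without day-7 TAC replicate 2 (log2 change 0.71, adjusted p = 0.0881), without day-7 TAC replicate 3 (log2 change 0.59, adjusted p = 0.135), without sham replicate 1 (log2 change 0.67, adjusted p = 0.0516) or without sham replicate 3 (log2 change 0.67, adjusted p = 0.0517). Timp1 lies on the X chromosome. Without day-1 TAC replicate 3, the library with Xist reads, Timp1 showed a log2 change of 2.17 between day-1 TAC and sham (adjusted p = 0.000508). The part of sex in the Timp1 result was not tested.

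Timp4 had log2 values of 1.13, 1.78 and 2.82 (day-1 TAC), 3.77, 3.63 and 3.92 (day-7 TAC) and 5.82, 5.25 and 4.75 (sham). The 3 groups did not overlap: sham was highest, day-7 TAC was between, and day-1 TAC was lowest with the widest spread. In recovered reads Timp4 had 46, 70 and 136 reads in the day-1 TAC libraries, 326, 238 and 318 reads in the day-7 TAC libraries and 1134, 975 and 516 reads in the sham libraries. It was 10.3-fold lower in day-1 TAC hearts (log2 change of -3.36 ± 0.37, adjusted p = 0.000237), 2.83-fold lower with day-7 TAC (log2 change of -1.50 ± 0.37, adjusted p = 0.0135), and 3.63-fold lower with day-1 TAC than with day-7 TAC (log2 change of -1.86 ± 0.37, adjusted p = 0.00948). The call with day-7 TAC against sham ended without sham replicate 1 (log2 change -1.23, adjusted p = 0.0527).

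Timp3 had log2 values of 8.29, 8.15 and 8.58 (day-1 TAC), 9.41, 9.41 and 9.33 (day-7 TAC) and 9.41, 8.65 and 8.76 (sham). The day-1 TAC libraries lay below all others, while sham replicate 1 lay beside the day-7 TAC libraries and above the other sham libraries. With day-1 TAC Timp3 was 2.06-fold lower than with day-7 TAC (log2 change of -1.04 ± 0.18, adjusted p = 0.00513) and 1.51-fold lower than with sham (log2 change of -0.60 ± 0.18, adjusted p = 0.025). Against sham, day-7 TAC gave a log2 change of 0.45 ± 0.18, adjusted p = 0.0828 and was not called. The call with day-1 TAC against sham ended without day-1 TAC replicate 1 (log2 change -0.57, adjusted p = 0.0657) or without day-1 TAC replicate 2 (log2 change -0.50, adjusted p = 0.08), and without sham replicate 1 the size dropped while the call held (log2 change -0.36, adjusted p = 0.0452). That library also stood apart in erythroid markers, whose summed level was 1010 there, against 330 and 276 in the other sham libraries. The level was 631 to 857 with day-1 TAC and 352 to 415 with day-7 TAC, and its part in the Timp3 result was not tested. Timp2 had log2 values of 7.48, 7.41 and 7.35 (day-1 TAC), 7.67, 7.72 and 7.67 (day-7 TAC) and 7.20, 7.33 and 7.50 (sham). The day-7 TAC libraries lay above all others and the groups of day-1 TAC and sham overlapped. Timp2 was 1.27-fold higher with day-7 TAC than with sham (log2 change of 0.34 ± 0.08, adjusted p = 0.0106) and differed by -0.27 between day-1 TAC and day-7 TAC (adjusted p = 0.0432); with day-1 TAC against sham it showed a log2 change of 0.07 ± 0.08, adjusted p = 0.529. The call between the TAC groups ended without day-1 TAC replicate 2 (log2 change -0.27, adjusted p = 0.0971), without day-1 TAC replicate 3 (log2 change -0.24, adjusted p = 0.117), without day-7 TAC replicate 1 (log2 change -0.28, adjusted p = 0.0965), without day-7 TAC replicate 2 (log2 change -0.26, adjusted p = 0.117), without day-7 TAC replicate 3 (log2 change -0.28, adjusted p = 0.0965) or without sham replicate 2 (log2 change -0.27, adjusted p = 0.0616), and also under median, upper-quartile, quantile and library-total scaling.

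**Figure D2:**
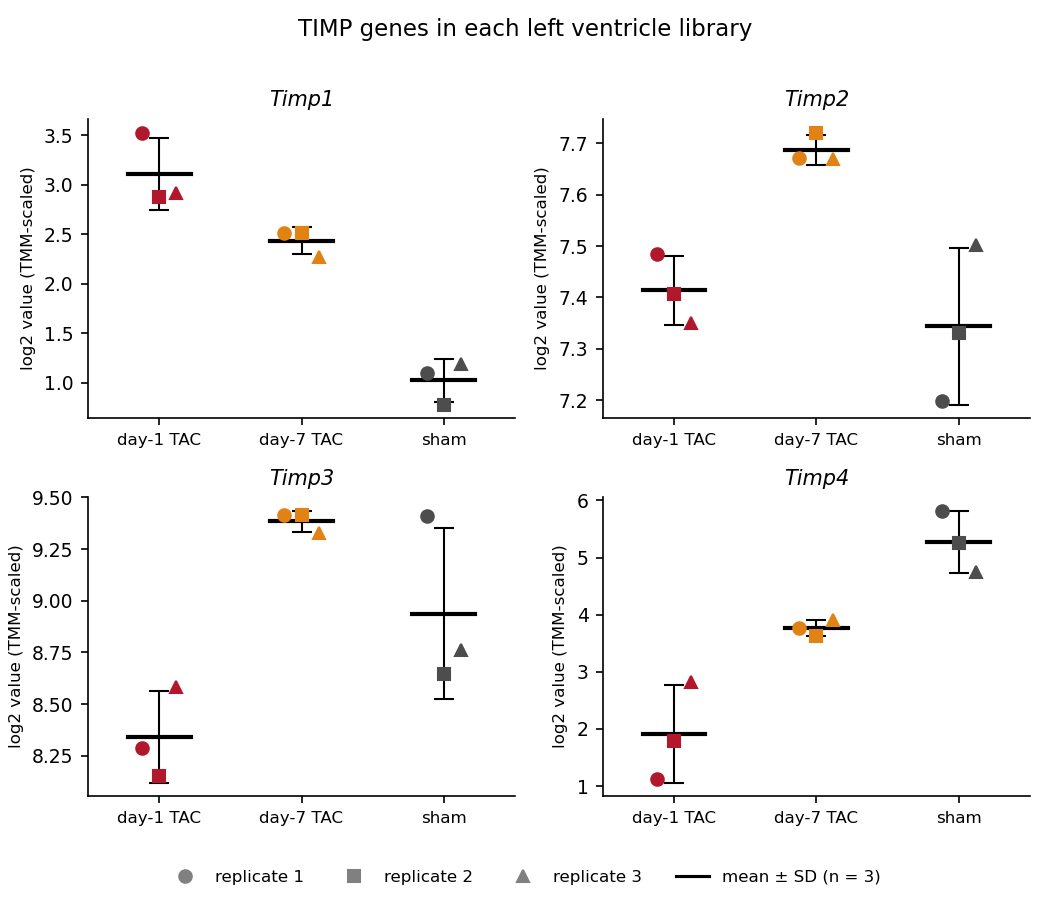
Log2 values (y axis, TMM-scaled, a separate scale in each panel) of the 4 TIMP genes in each library, by group, with the mean and SD of 3 libraries as bars. The 3 groups are separate for Timp1 and Timp4 and in opposite order: Timp1 is highest with day-1 TAC (2.87 to 3.53) and Timp4 highest in sham (4.75 to 5.82).

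Per kilobase of exon, over the union of exons in GENCODE M21, the TIMPs ranked far apart among the 55 members. The union also counts exon bases that the expressed transcript may lack, so ranks between genes are rough. It was 5894 bases for Timp4 and 888 for Timp1. In sham, Timp3 had the highest mean level (5.91 ± 0.41, SD, log2 per kilobase, n = 3), followed by Mmp2 (5.67 ± 0.04), Timp2 (5.38 ± 0.15), Mmp15 (4.99 ± 0.17) and Adam9 (4.79 ± 0.03). Timp3 and Mmp2 differed by less than the spread of Timp3. Timp4 ranked 36 with day-1 TAC and 27 with day-7 TAC, against 19 in sham. Timp1 ranked 16 with day-1 TAC and 18 with day-7 TAC, against 28 in sham. With day-1 TAC the level of Timp1 was 3.28 and that of Timp4 -0.65, with day-7 TAC 2.61 and 1.21, and in sham 1.20 and 2.71 on the same per-kilobase scale. Not divided by length, Timp4 averaged 3.77 and Timp1 2.44 with day-7 TAC, so their order there depended on the exon length used.

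In the annotation 3 of the 4 TIMP genes lie inside synapsin genes on the opposite strand, and whether reads were assigned by strand is not given in the sources used here. Timp1 (chrX:20870166-20874735) lies within Syn1, Timp3 (chr10:86300372-86349506) within Syn3 and Timp4 (chr6:115241892-115252205) within Syn2. Synapsins are neuronal vesicle proteins. Timp3 and Syn3 share 1733 exon bases, Timp4 and Syn2 share 90, and Timp1 and Syn1 share none. Syn3 had log2 values of 3.94, 3.86 and 4.24 (day-1 TAC), 5.05, 4.97 and 5.24 (day-7 TAC) and 5.0, 4.57 and 4.82 (sham). Syn3 moved with Timp3: it was lower with day-1 TAC against sham (log2 change -0.78, adjusted p = 0.00201) and against day-7 TAC (log2 change -1.07, adjusted p = 0.00152), and with day-7 TAC against sham it was not called (log2 change 0.29, adjusted p = 0.135). Reads of Timp3 and Syn3 in the shared bases cannot be told apart without strand. Syn2 had log2 values of 2.50, 2.37 and 2.05 (day-1 TAC), 1.42, 1.38 and 2.01 (day-7 TAC) and 1.83, 1.08 and 1.80 (sham). It went the other way from Timp4 with day-1 TAC against sham (log2 change 0.74, adjusted p = 0.0444) and was not called with day-7 TAC against sham (log2 change 0.03, adjusted p = 0.934) or between the TAC groups (log2 change 0.70, adjusted p = 0.0814). Syn1 had 38, 29 and 21 reads in the day-1 TAC libraries, 29, 18 and 15 reads in the day-7 TAC libraries and 16, 10 and 14 reads in the sham libraries. It was below 0 on the log2 scale in all 3 sham libraries and passed the filter through TAC libraries, so no test of it is given.

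**Figure D3:**
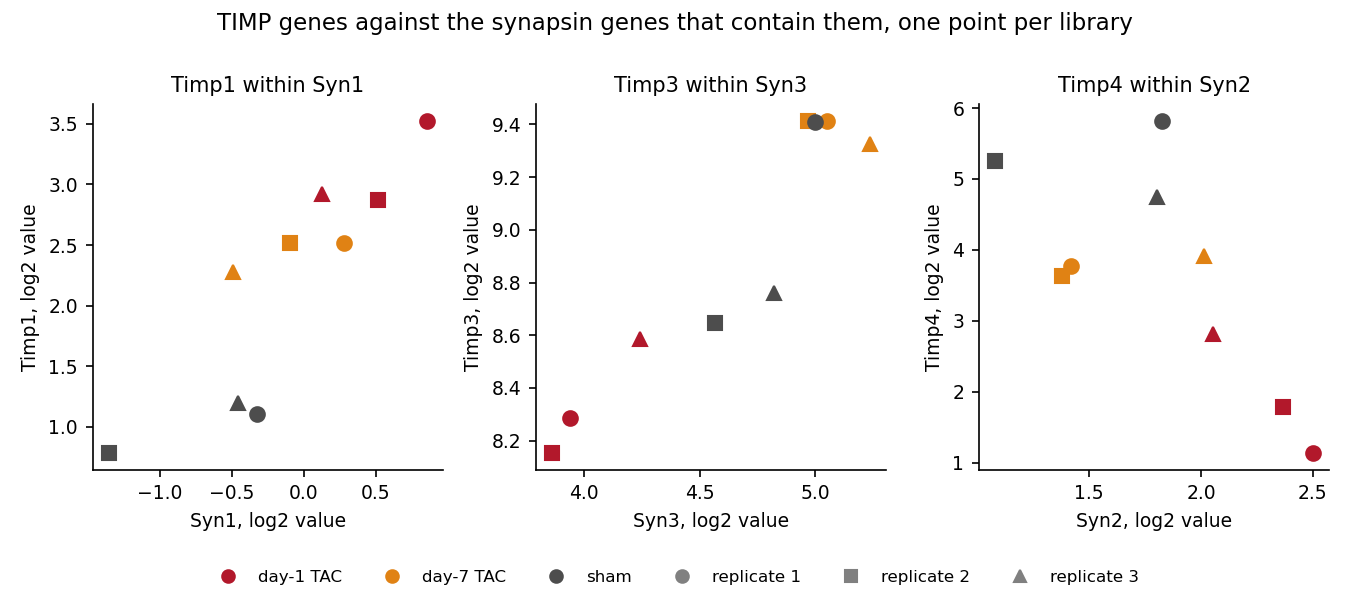
Log2 values of Timp1, Timp3 and Timp4 (y axes) against the log2 values of the synapsin gene around each (x axes), with 1 point per library, coloured by group. Timp3 and Syn3 are both lowest in the 3 day-1 TAC libraries, where Syn3 lies between 3.86 and 4.24, and Timp4 is lowest where Syn2 is highest.

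Of the MMPs, 9 of 15 were tested and 4 were called against sham in at least 1 comparison. For this count too, the share of all tested genes was not counted. Mmp14 and Mmp23 were higher with both operations, Mmp11 was lower with both and Mmp28 was lower with day-1 TAC. Mmp2, the gelatinase that Mmp14 activates and the most abundant MMP in sham per kilobase, was not called. Mmp14 (chr14:54431612-54445364) is a membrane-type collagenase and the activator of pro-Mmp2. Its log2 values were 7.08, 6.75 and 6.89 (day-1 TAC), 6.96, 6.90 and 6.87 (day-7 TAC) and 6.21, 6.18 and 6.20 (sham). Both TAC groups lay above all sham libraries, which were close to each other. Mmp14 was 1.64-fold higher in day-1 TAC hearts (log2 change of 0.71 ± 0.08, adjusted p = 0.000291) and 1.64-fold higher with day-7 TAC (log2 change of 0.71 ± 0.08, adjusted p = 0.000335), with no call between them (log2 change of 0.00 ± 0.08, adjusted p = 0.997). Mmp2 had log2 values of 7.52, 7.21 and 7.37 (day-1 TAC), 7.80, 7.26 and 7.58 (day-7 TAC) and 7.38, 7.46 and 7.43 (sham), and its groups overlapped (log2 change of -0.06 ± 0.12, adjusted p = 0.76 with day-1 TAC; log2 change of 0.12 ± 0.12, adjusted p = 0.48 with day-7 TAC, both against sham).

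Mmp23 (chr4:155650655-155653384), an MMP without the usual hemopexin domain that is released from the membrane by cleavage and is grouped here with the secreted MMPs, had log2 values of 4.97, 4.67 and 4.61 (day-1 TAC), 4.39, 4.17 and 4.59 (day-7 TAC) and 3.21, 3.01 and 3.62 (sham). The TAC and sham libraries did not overlap, and sham was lower. It was 2.77-fold higher in day-1 TAC hearts (log2 change of 1.47 ± 0.17, adjusted p = 0.000279) and 2.15-fold higher with day-7 TAC (log2 change of 1.10 ± 0.17, adjusted p = 0.00131). Mmp11 (chr10:75923222-75936496), also known as stromelysin-3, had log2 values of 2.64, 2.92 and 2.84 (day-1 TAC), 2.50, 2.29 and 3.27 (day-7 TAC) and 3.65, 4.0 and 3.50 (sham). All TAC libraries lay below the sham libraries, with day-7 TAC replicate 3 closest to them. Mmp11 was 1.89-fold lower in day-1 TAC hearts (log2 change of -0.92 ± 0.23, adjusted p = 0.0126) and 2.04-fold lower with day-7 TAC (log2 change of -1.03 ± 0.23, adjusted p = 0.00881), and the call with day-1 TAC ended without sham replicate 2 (log2 change -0.78, adjusted p = 0.0544). Mmp11 shares 155 exon bases with Chchd10 on the opposite strand, a mitochondrial protein gene. Chchd10 averaged 8.49 with day-1 TAC and 8.07 with day-7 TAC, against 8.39 in sham, far above Mmp11. Chchd10 was not called between day-1 TAC and sham (log2 change 0.10, adjusted p = 0.294). With day-7 TAC against sham it was lower, as Mmp11 was (log2 change -0.31, adjusted p = 0.00837). The part of the shared bases in the Mmp11 result was not tested.

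Mmp28 (chr11:83440768-83463071), or epilysin, had log2 values of 2.49, 2.64 and 2.70 (day-1 TAC), 3.22, 2.94 and 3.19 (day-7 TAC) and 3.21, 3.40 and 3.19 (sham). The day-1 TAC libraries were the lowest, and day-7 TAC overlapped with sham. It was 1.57-fold lower with day-1 TAC than with sham (log2 change of -0.65 ± 0.13, adjusted p = 0.00345) and 1.42-fold lower than with day-7 TAC (log2 change of -0.51 ± 0.13, adjusted p = 0.024). The call between the TAC groups ended without day-1 TAC replicate 1 (log2 change -0.45, adjusted p = 0.0621), without day-7 TAC replicate 1 (log2 change -0.45, adjusted p = 0.0824) or without day-7 TAC replicate 3 (log2 change -0.47, adjusted p = 0.078). The membrane-type Mmp15 had log2 values of 7.16, 7.35 and 7.05 (day-1 TAC), 7.20, 7.44 and 7.25 (day-7 TAC) and 7.23, 7.56 and 7.48 (sham) and was not called (log2 change of -0.24 ± 0.11, adjusted p = 0.111 with day-1 TAC against sham). Mmp16, Mmp17 and Mmp19 were tested and not called, with log2 fold changes between -0.24 and 0.26 over the 3 comparisons.

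Of the 8 ADAMs known as proteases, 3 were called after day-1 TAC, all higher than sham, and 4 after day-7 TAC, of which 3 were higher than sham and 1 was lower. These were 37.5% and 50% of the 8, beside 34.8% and 28.9% of all tested genes. Adam12 and Adam15 were higher in both TAC groups, Adam17 with day-1 TAC and Adam9 with day-7 TAC. Adam12 (chr7:133883199-134232146), which is known to release the growth factor HB-EGF in the heart, had log2 values of 3.05, 2.30 and 2.68 (day-1 TAC), 2.46, 3.09 and 2.87 (day-7 TAC) and 1.29, 1.45 and 2.0 (sham). No sham library reached the TAC libraries. Adam12 was 2.14-fold higher in day-1 TAC hearts (log2 change of 1.10 ± 0.25, adjusted p = 0.00768) and 2.34-fold higher with day-7 TAC (log2 change of 1.23 ± 0.25, adjusted p = 0.00552). Adam15, an ADAM of endothelial and smooth muscle cells, had log2 values of 6.39, 6.24 and 6.45 (day-1 TAC), 6.37, 6.40 and 6.37 (day-7 TAC) and 6.10, 5.94 and 6.05 (sham). The shift was small and the spread smaller: log2 change of 0.33 ± 0.07, adjusted p = 0.0074 with day-1 TAC and log2 change of 0.35 ± 0.07, adjusted p = 0.00688 with day-7 TAC.

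Adam17 (chr12:21323509-21373632), the enzyme that releases TNF and several EGF receptor ligands, had log2 values of 6.62, 6.73 and 6.66 (day-1 TAC), 6.27, 6.36 and 6.37 (day-7 TAC) and 6.19, 6.42 and 6.46 (sham). The day-1 TAC libraries were the highest, and day-7 TAC overlapped with sham. It was called between day-1 TAC and sham (log2 change of 0.31 ± 0.08, adjusted p = 0.0138) and against day-7 TAC (log2 change of 0.34 ± 0.08, adjusted p = 0.0202), and the second call ended without day-1 TAC replicate 2 (log2 change 0.31, adjusted p = 0.0628), without day-7 TAC replicate 1 (log2 change 0.30, adjusted p = 0.0723) or without day-7 TAC replicate 2 (log2 change 0.35, adjusted p = 0.0529). Adam17 shares 311 exon bases with Iah1 on the opposite strand, which was also higher with day-1 TAC against sham (log2 change 0.73, adjusted p = 0.000392) and against day-7 TAC (log2 change 0.36, adjusted p = 0.0227), and the part of the shared bases in the Adam17 result was not tested. Adam9, a widely expressed sheddase, had log2 values of 7.42, 6.83 and 6.92 (day-1 TAC), 7.34, 7.40 and 7.36 (day-7 TAC) and 6.81, 6.86 and 6.83 (sham). Day-7 TAC lay above sham in every library, and day-1 TAC replicate 1 stood above the other day-1 TAC libraries. Adam9 was called with day-7 TAC against sham (log2 change of 0.53 ± 0.13, adjusted p = 0.0113) and not with day-1 TAC (log2 change of 0.22 ± 0.13, adjusted p = 0.197).

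Adam33 had log2 values of 1.34, 1.24 and 0.94 (day-1 TAC), 1.88, 0.20 and 0.36 (day-7 TAC) and 1.92, 2.13 and 2.0 (sham). The day-7 TAC libraries were spread over more than the distance between the groups' means, with replicate 1 near sham. It was called with day-7 TAC against sham (log2 change of -1.21 ± 0.38, adjusted p = 0.0349), and this ended without day-7 TAC replicate 2 (log2 change -0.90, adjusted p = 0.125), without day-7 TAC replicate 3 (log2 change -0.98, adjusted p = 0.117), without sham replicate 1 (log2 change -1.26, adjusted p = 0.0712), without sham replicate 2 (log2 change -1.15, adjusted p = 0.0963) or without sham replicate 3 (log2 change -1.22, adjusted p = 0.0704). Day-7 TAC replicate 1 also stood apart in atrial cardiomyocyte markers, whose summed level was 390 there, against 139 and 148 in replicates 2 and 3 of its group. In the other groups that level was 283 to 441 with day-1 TAC and 188 to 291 in sham. The part of atrial tissue in the Adam33 result was not tested. Adam10, the main enzyme of Notch and cadherin shedding, had log2 values of 6.94, 6.79 and 6.71 (day-1 TAC), 6.82, 6.75 and 6.72 (day-7 TAC) and 6.96, 6.90 and 6.89 (sham) and was not called (log2 change of -0.15 ± 0.07, adjusted p = 0.14 with day-7 TAC against sham). Adam19, which sheds neuregulins and is needed for heart valve and septum formation in mice, had log2 values of 7.63, 7.25 and 7.48 (day-1 TAC), 7.71, 8.06 and 7.94 (day-7 TAC) and 7.83, 7.50 and 7.01 (sham). Its groups overlapped and it was not called (log2 change of 0.46 ± 0.18, adjusted p = 0.0845 with day-7 TAC against sham, log2 change of -0.45 ± 0.18, adjusted p = 0.114 between the TAC groups). Of the ADAMs that lack protease activity, 4 were tested and Adam22, a receptor for LGI proteins at synapses, was called lower in both TAC groups. Its log2 values were 1.86, 2.56 and 2.11 (day-1 TAC), 2.32, 2.70 and 2.71 (day-7 TAC) and 3.38, 3.30 and 3.62 (sham), with no overlap with sham. Adam22 was 2.39-fold lower in day-1 TAC hearts (log2 change of -1.26 ± 0.19, adjusted p = 0.00109) and 1.81-fold lower with day-7 TAC (log2 change of -0.85 ± 0.19, adjusted p = 0.00881).

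The ADAMTS proteoglycanases, which cut versican and aggrecan, split in direction. Of 6 tested, Adamts4 and Adamts8 were higher in both TAC groups, Adamts5 was lower in both and Adamts9 was lower with day-1 TAC, while Adamts1 and Adamts15 were not called. Adamts8 (chr9:30942562-30963838) had the highest log2 fold change of the tested members in both comparisons with sham. Its log2 values were 4.34, 3.46 and 3.64 (day-1 TAC), 3.90, 3.63 and 3.38 (day-7 TAC) and 1.17, 1.49 and 1.93 (sham). All TAC libraries lay well above all sham libraries. Adamts8 was 4.87-fold higher in day-1 TAC hearts (log2 change of 2.29 ± 0.25, adjusted p = 0.000237) and 4.31-fold higher with day-7 TAC (log2 change of 2.11 ± 0.25, adjusted p = 0.000417), with no call between the TAC groups (log2 change of 0.18 ± 0.25, adjusted p = 0.661). Per kilobase its rank among the 55 members was 23 with day-1 TAC and 25 with day-7 TAC, against 39 in sham.

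Adamts4 (chr1:171250421-171260637), also called aggrecanase-1, had log2 values of 2.85, 2.79 and 3.28 (day-1 TAC), 2.21, 3.06 and 2.53 (day-7 TAC) and 2.18, 1.25 and 1.82 (sham). Day-7 TAC replicate 1 lay just above sham replicate 1, the highest of the sham libraries. It was 2.33-fold higher in day-1 TAC hearts (log2 change of 1.22 ± 0.27, adjusted p = 0.00674) and 1.8-fold higher with day-7 TAC (log2 change of 0.85 ± 0.27, adjusted p = 0.0393), and the call with day-7 TAC ended without day-7 TAC replicate 2 (log2 change 0.62, adjusted p = 0.143), without day-7 TAC replicate 3 (log2 change 0.88, adjusted p = 0.0793), without sham replicate 2 (log2 change 0.60, adjusted p = 0.137) or without sham replicate 3 (log2 change 0.88, adjusted p = 0.0671). Adamts5 (chr16:85856173-85901828), or aggrecanase-2, had log2 values of 5.67, 5.67 and 5.61 (day-1 TAC), 5.84, 5.63 and 5.77 (day-7 TAC) and 6.65, 6.30 and 6.16 (sham). No TAC library reached the sham libraries. It was 1.64-fold lower in day-1 TAC hearts (log2 change of -0.72 ± 0.12, adjusted p = 0.00135) and 1.54-fold lower with day-7 TAC (log2 change of -0.62 ± 0.12, adjusted p = 0.0035). Adamts9 had log2 values of 5.87, 6.01 and 6.45 (day-1 TAC), 6.62, 6.73 and 6.55 (day-7 TAC) and 6.70, 6.62 and 6.72 (sham), with the day-1 TAC libraries lowest. It was called between day-1 TAC and sham (log2 change of -0.57 ± 0.13, adjusted p = 0.00707) and against day-7 TAC (log2 change of -0.52 ± 0.13, adjusted p = 0.0207), and the second call ended without day-1 TAC replicate 1 (log2 change -0.40, adjusted p = 0.0538), without day-1 TAC replicate 2 (log2 change -0.47, adjusted p = 0.064), without day-7 TAC replicate 1 (log2 change -0.53, adjusted p = 0.0564) or without day-7 TAC replicate 2 (log2 change -0.48, adjusted p = 0.0719). Adamts9 overlaps 2 weakly expressed genes on the opposite strand. It shares 1381 exon bases with A730049H05Rik, which averaged -0.36 with day-1 TAC and 0.93 with day-7 TAC, against -0.01 in sham. Adamts9 shares 424 with Gm15737, which averaged -0.96 with day-1 TAC and -0.92 with day-7 TAC, against 0.65 in sham. A730049H05Rik averaged above 0 only with day-7 TAC and Gm15737 only in sham, so no test of either is given. The part of the shared bases in the Adamts9 result was not tested. Adamts1, an early-response proteoglycanase, had log2 values of 6.39, 5.81 and 5.94 (day-1 TAC), 5.65, 5.82 and 5.37 (day-7 TAC) and 6.02, 5.54 and 5.57 (sham). Its groups overlapped and it was not called (log2 change of 0.34 ± 0.18, adjusted p = 0.166 with day-1 TAC against sham).

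Of the procollagen N-proteinases, which remove the amino-terminal propeptide of fibrillar procollagens, Adamts2 was higher in both TAC groups. Its log2 values were 7.13, 6.72 and 6.80 (day-1 TAC), 6.85, 6.76 and 6.79 (day-7 TAC) and 6.13, 6.18 and 6.43 (sham). It was 1.56-fold higher in day-1 TAC hearts (log2 change of 0.64 ± 0.11, adjusted p = 0.0022) and 1.47-fold higher with day-7 TAC (log2 change of 0.55 ± 0.11, adjusted p = 0.00551), with no overlap with sham. Adamts14 had log2 values of 3.20, 3.09 and 3.22 (day-1 TAC), 3.74, 3.74 and 4.0 (day-7 TAC) and 2.03, 2.65 and 3.24 (sham). The day-7 TAC libraries lay above all sham libraries and the sham libraries were spread over more than 1 log2 unit. Adamts14 was called with day-7 TAC against sham (log2 change of 1.19 ± 0.24, adjusted p = 0.0055) and not with day-1 TAC (log2 change of 0.53 ± 0.24, adjusted p = 0.113). Adamts3, which also processes VEGF-C, went the other way and had log2 values of 3.77, 4.22 and 4.26 (day-1 TAC), 4.52, 4.89 and 4.49 (day-7 TAC) and 4.98, 4.95 and 5.02 (sham). It was lower with day-1 TAC against sham (log2 change of -0.90 ± 0.14, adjusted p = 0.00135) and against day-7 TAC (log2 change of -0.55 ± 0.14, adjusted p = 0.0284), and the second call ended without day-1 TAC replicate 1 (log2 change -0.39, adjusted p = 0.0637) or without day-7 TAC replicate 2 (log2 change -0.42, adjusted p = 0.0945).

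Of the other ADAMTS genes, Adamts6 and Adamts7 were called. Adamts6 (chr13:104287835-104496695), needed for normal heart development in mice, had log2 values of 2.95, 2.83 and 3.25 (day-1 TAC), 3.76, 3.91 and 3.83 (day-7 TAC) and 4.28, 4.02 and 4.27 (sham). The 3 groups did not overlap, with day-1 TAC lowest and sham highest. Adamts6 was 2.26-fold lower with day-1 TAC than with sham (log2 change of -1.18 ± 0.13, adjusted p = 0.00022) and 1.77-fold lower than with day-7 TAC (log2 change of -0.82 ± 0.13, adjusted p = 0.00366), and with day-7 TAC against sham it was not called (log2 change of -0.36 ± 0.13, adjusted p = 0.0575). Adamts7 (chr9:90163069-90208071), known to cut COMP and thrombospondin-1, had log2 values of 4.73, 5.45 and 5.06 (day-1 TAC), 5.37, 4.94 and 4.96 (day-7 TAC) and 6.26, 6.50 and 5.92 (sham). The TAC and sham libraries did not overlap, and sham was higher. It was 2.22-fold lower in day-1 TAC hearts (log2 change of -1.15 ± 0.20, adjusted p = 0.00189) and 2.2-fold lower with day-7 TAC (log2 change of -1.14 ± 0.20, adjusted p = 0.00242). Adamts10, which binds fibrillin, was not called (log2 change of 0.30 ± 0.13, adjusted p = 0.1 with day-1 TAC against sham). Its log2 values were 6.44, 6.43 and 6.23 (day-1 TAC), 6.52, 5.97 and 6.42 (day-7 TAC) and 6.0, 6.19 and 6.02 (sham).

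The ADAMTS-like genes, several of whose products bind fibrillin microfibrils, split as well. Adamtsl5 was higher in both TAC groups, Adamtsl3 and Adamtsl4 were lower in both, and Adamtsl2 differed between the TAC groups. Adamtsl5 (chr10:80339110-80348412) had log2 values of 6.83, 6.61 and 6.76 (day-1 TAC), 6.96, 6.86 and 6.94 (day-7 TAC) and 5.34, 5.40 and 5.45 (sham). All TAC libraries lay well above all sham libraries, and the spread within each group was small. It was 2.53-fold higher in day-1 TAC hearts (log2 change of 1.34 ± 0.07, adjusted p = 1.55e-05) and 2.88-fold higher with day-7 TAC (log2 change of 1.53 ± 0.07, adjusted p = 5.62e-06). Adamtsl4 (chr3:95676201-95687917), in which human mutations dislocate the lens, had log2 values of 4.51, 5.25 and 5.07 (day-1 TAC), 5.23, 4.83 and 5.08 (day-7 TAC) and 6.42, 6.26 and 6.23 (sham). Both TAC groups lay below sham without overlap. It was 2.57-fold lower in day-1 TAC hearts (log2 change of -1.36 ± 0.17, adjusted p = 0.000452) and 2.39-fold lower with day-7 TAC (log2 change of -1.26 ± 0.17, adjusted p = 0.000756). Per kilobase its rank was 17 with day-1 TAC and 16 with day-7 TAC, against 8 in sham.

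Adamtsl3 had log2 values of 3.43, 3.61 and 4.15 (day-1 TAC), 3.86, 4.30 and 4.15 (day-7 TAC) and 4.56, 4.86 and 4.81 (sham). It was 2.01-fold lower in day-1 TAC hearts (log2 change of -1.01 ± 0.18, adjusted p = 0.00238) and 1.55-fold lower with day-7 TAC (log2 change of -0.64 ± 0.18, adjusted p = 0.025), with no overlap with sham. The call with day-7 TAC ended without day-7 TAC replicate 1 (log2 change -0.51, adjusted p = 0.0875), without day-7 TAC replicate 3 (log2 change -0.66, adjusted p = 0.0558), without sham replicate 2 (log2 change -0.58, adjusted p = 0.0834) or without sham replicate 3 (log2 change -0.60, adjusted p = 0.0639). Adamtsl2, in which human mutations cause geleophysic dysplasia, had log2 values of 6.15, 5.62 and 5.64 (day-1 TAC), 5.24, 4.41 and 5.01 (day-7 TAC) and 5.57, 4.53 and 5.09 (sham). The sham libraries were spread over 1 log2 unit and overlapped with day-7 TAC. It was 1.89-fold higher with day-1 TAC than with day-7 TAC (log2 change of 0.92 ± 0.27, adjusted p = 0.043), and not called between day-1 TAC and sham (log2 change of 0.75 ± 0.27, adjusted p = 0.0546). The call between the TAC groups ended without day-1 TAC replicate 1 (log2 change 0.75, adjusted p = 0.119), without day-1 TAC replicate 2 (log2 change 1.01, adjusted p = 0.0646), without day-1 TAC replicate 3 (log2 change 1.0, adjusted p = 0.0678), without day-7 TAC replicate 2 (log2 change 0.68, adjusted p = 0.136), without day-7 TAC replicate 3 (log2 change 0.98, adjusted p = 0.0841) or without sham replicate 3 (log2 change 0.92, adjusted p = 0.0559).

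**Figure D4:**
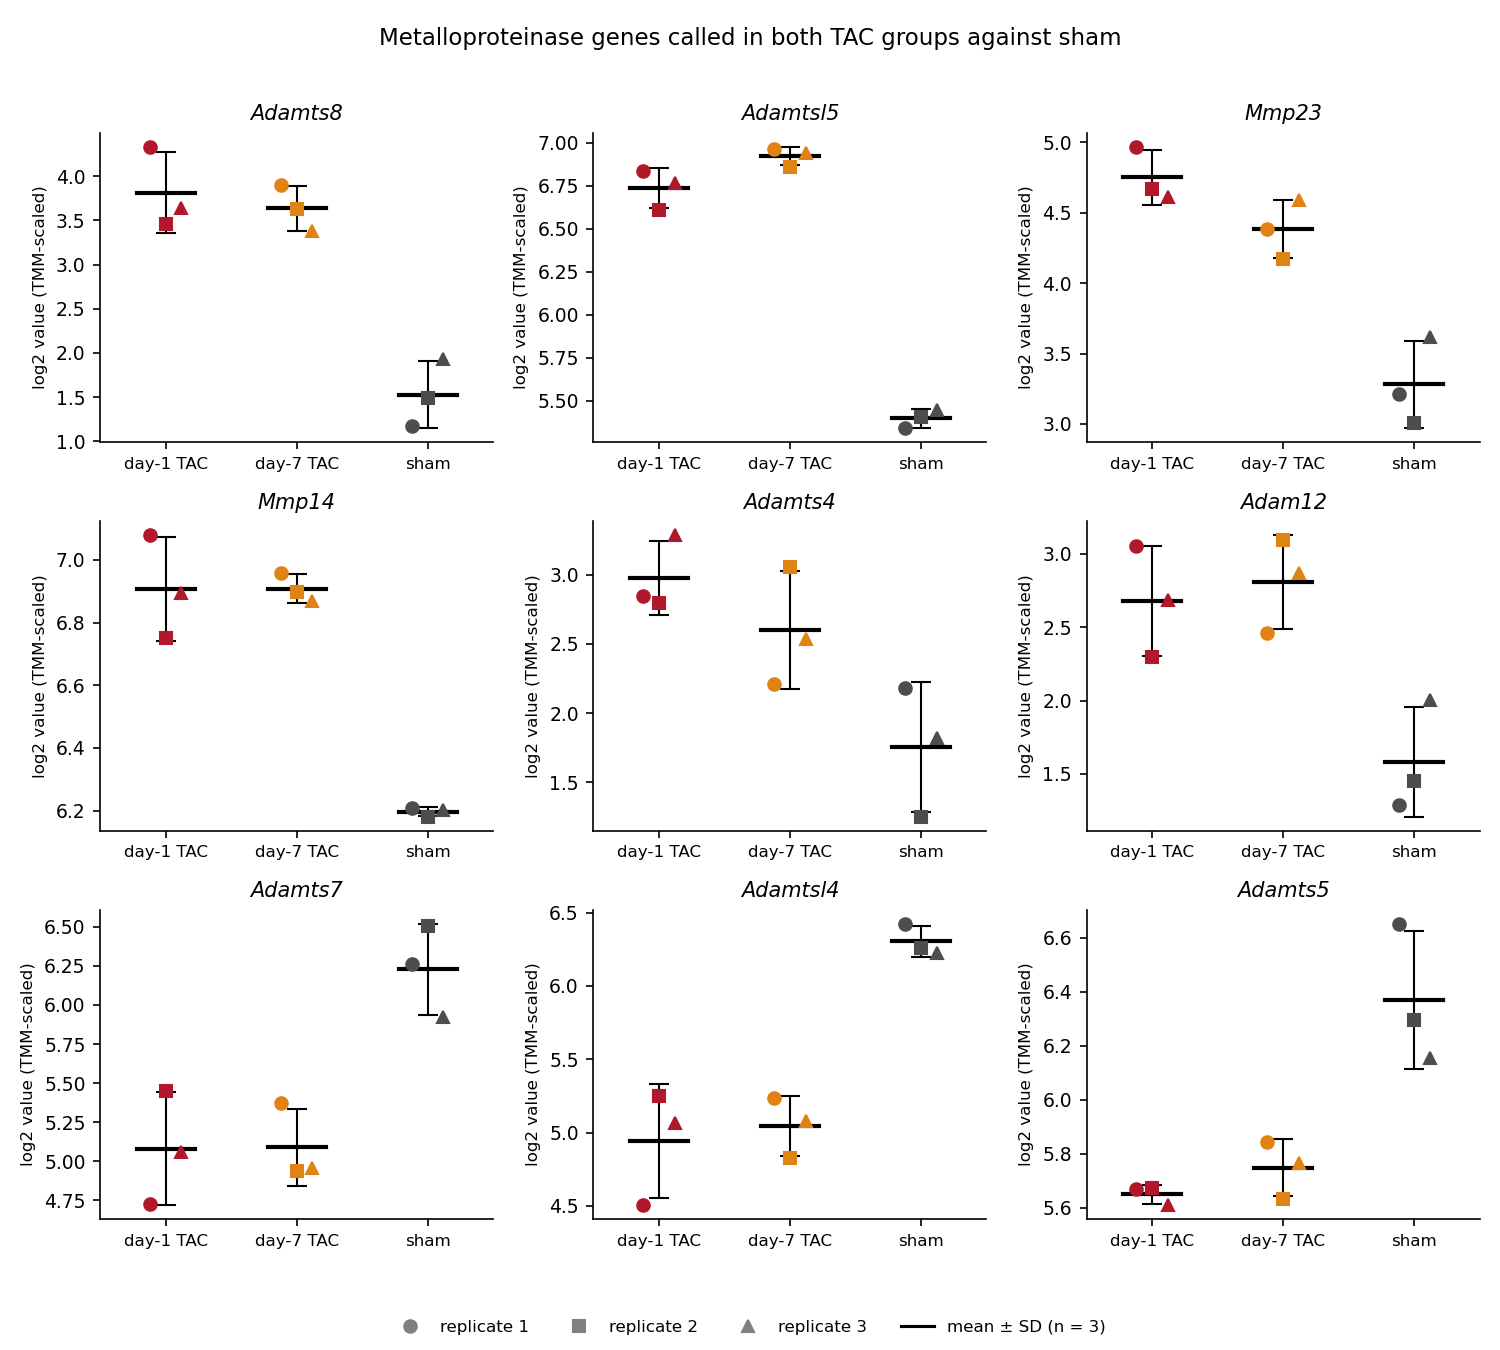
Log2 values (y axis, TMM-scaled, a separate scale in each panel) of 9 members called in both TAC groups against sham, in each library, by group, with the mean and SD of 3 libraries as bars. The TAC libraries lie above sham in the upper 6 panels and below it in the lower 3, and the spread within groups is narrowest for Mmp14 in sham (6.18 to 6.21).

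By the presence of the zinc site, 32 tested members encoded it and 13 did not. Among those with the site 8 were higher and 7 lower after day-1 TAC, and 9 were higher and 4 lower after day-7 TAC, relative to sham. Among the 9 tested members with neither the site nor a TIMP fold, the ADAMs without protease activity and the ADAMTS-like genes, 1 was higher and 3 lower in each of those comparisons. Over all tested genes 14.3% were higher and 20.5% lower after day-1 TAC, and 13.8% higher and 15.1% lower after day-7 TAC. Members with and without the site were not compared by a test. Of the 4 tested ADAMTS genes with asparagine at the variable position, Adamts4 was higher and Adamts9 lower with day-1 TAC against sham, so members with the same variant moved in opposite directions.

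The 18 members called in no comparison were Mmp2, Mmp15, Mmp16, Mmp17, Mmp19, Adam8, Adam10, Adam11, Adam19, Adam23, Adam32, Adamts1, Adamts10, Adamts12, Adamts15, Adamts17, Adamts19 and Adamtsl1. For the 12 of these that are not given in full above, log2 fold changes over the 3 comparisons lay between -0.58 (Adam11, day-1 TAC against day-7 TAC) and 0.52 (Adamts17, day-7 TAC against sham). The other 10 members were below the filter on low values: Mmp3, Mmp9, Mmp12, Mmp13, Mmp24, Mmp25, Adam2, Adam5, Adamts16 and Adamts18. Among these, Mmp9, a gelatinase stored in neutrophil granules, had 9, 2 and 18 reads in the day-1 TAC libraries, 23, 34 and 16 reads in the day-7 TAC libraries and 4, 4 and 3 reads in the sham libraries. All day-7 TAC libraries lay above all sham libraries, and day-1 TAC overlapped with sham only through its lowest library. In a fit with no filter Mmp9 was called with day-7 TAC against sham (log2 change 2.68 ± 0.69, adjusted p = 0.0168). Mmp25, a membrane-type MMP of leukocytes, had 4, 1 and 4 reads in the day-1 TAC libraries, 11, 9 and 10 reads in the day-7 TAC libraries and 3, 6 and 4 reads in the sham libraries, and in that fit it was called between day-1 TAC and day-7 TAC (log2 change -1.90 ± 0.55, adjusted p = 0.0434). Mmp3, or stromelysin-1, had 1, 8 and 8 reads in the day-1 TAC libraries, 1, 3 and 2 reads in the day-7 TAC libraries and 9, 8 and 8 reads in the sham libraries and was not called in that fit. The other 7 had between 1 and 22 reads in each library.

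Neutrophil marker reads were counted beside Mmp9. Their sum over the 9 listed markers in the table was 172 to 681 in the day-1 TAC libraries and 787 to 1406 in the day-7 TAC libraries, against 52 to 116 in sham, where 5 of the 9 had under 10 reads in every library. Day-1 TAC replicate 3 stood apart in its group, with a summed level of 35.3, against 8.19 in replicate 1 and 9.69 in replicate 2. Calls over these markers are not counted here, since 7 of the 8 that passed the filter were at or below 0 in every sham library and passed through TAC libraries. Macrophage markers summed to a level of 182 to 248 with day-1 TAC and 114 to 136 with day-7 TAC, against 175 to 231 in sham. Of 11 macrophage markers, 4 were higher and 1 lower with day-1 TAC, and 4 were lower with day-7 TAC, both against sham. These were 45.5% and 36.4% of the 11, beside 34.8% and 28.9% of all tested genes. Between day-1 TAC and day-7 TAC 7 of the 11 were higher with day-1 TAC and 0 lower (0 also at an unadjusted p under 0.05, limma). That was 63.6% called, beside 16.7% of all tested genes. Fibroblast markers summed to 3667 to 4409 with day-1 TAC and 3076 to 3678 with day-7 TAC, against 2879 to 3487 in sham. Of 11 fibroblast markers, 3 were higher and 2 lower with day-1 TAC against sham (45.5%, beside 34.8% of all tested genes). With day-7 TAC against sham limma called 0 (1, Lum, at an unadjusted p under 0.05), beside 28.9% of all tested genes. The part of these cells in the members' results was not tested. Cardiomyocyte markers were present at 85458 to 110858 with day-1 TAC and 99286 to 108343 with day-7 TAC, against 116254 to 123151 in sham; the defining markers of the labelled tissue were thus present.

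Genes that activate or otherwise control metalloproteinases were described from a list of 28, of which 21 were tested. Against sham, 7 were higher and 1 lower with day-1 TAC (38.1% called, beside 34.8% of all tested genes). With day-7 TAC 5 were higher and 1 lower (28.6%, beside 28.9%). Between the TAC groups 3 were higher and 1 lower with day-1 TAC (19%, beside 16.7%). The shares of this list were thus near those of all tested genes. Pcolce, which speeds the removal of the carboxy-terminal propeptide of procollagen, averaged 6.90 ± 0.22 with day-1 TAC and 6.46 ± 0.10 with day-7 TAC, against 5.88 ± 0.19 in sham (SD, n = 3 each, log2 values). It was called in all 3 comparisons (log2 change of 1.02 ± 0.12, adjusted p = 0.000351 after day-1 TAC and log2 change of 0.58 ± 0.12, adjusted p = 0.00657 after day-7 TAC, and log2 change of 0.44 ± 0.12, adjusted p = 0.0354 between the TAC groups). Plat, the tissue plasminogen activator, averaged 5.52 ± 0.08 with day-1 TAC and 5.61 ± 0.06 with day-7 TAC, against 4.97 ± 0.11 in sham (log2 change of 0.55 ± 0.08, adjusted p = 0.000943 after day-1 TAC and log2 change of 0.64 ± 0.08, adjusted p = 0.000543 after day-7 TAC). Plau, the urokinase, was higher with day-1 TAC than with day-7 TAC (log2 change of 0.74 ± 0.20, adjusted p = 0.0314). Of the proprotein convertases, Pcsk5 was higher and Pcsk6 lower in both TAC groups against sham (Pcsk5 0.64 with day-1 TAC and 0.61 with day-7 TAC; Pcsk6 -0.50 and -0.31, log2 fold changes).

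Of the proteoglycans cut by ADAMTS enzymes, 2 were tested, Vcan (versican) and Acan (aggrecan). Vcan was higher in both TAC groups against sham, and averaged 7.46 ± 0.47 with day-1 TAC and 6.95 ± 0.18 with day-7 TAC, against 6.08 ± 0.50 in sham (log2 change of 1.38 ± 0.26, adjusted p = 0.00292 after day-1 TAC and log2 change of 0.87 ± 0.26, adjusted p = 0.0303 after day-7 TAC). Acan averaged 0.92 ± 0.11 with day-1 TAC and 0.92 ± 0.62 with day-7 TAC, against -0.45 ± 0.59 in sham. It was above 0 in 1 of 3 sham libraries and in all 6 TAC libraries, so it passed the filter through the groups where it was high, and its test is not given. Of 29 tested genes whose proteins ADAMs shed, 9 were higher and 8 lower with day-1 TAC, and 7 higher and 6 lower with day-7 TAC. Together they made 58.6% and 44.8% of the 29, beside 34.8% and 28.9% of all tested genes. These counts include Lrp8 and Ereg, which were at or below 0 in every sham library and passed the filter through TAC libraries. Hbegf, the precursor of HB-EGF and a substrate of Adam12 and Adam17, averaged 5.73 ± 0.15 with day-1 TAC and 6.04 ± 0.31 with day-7 TAC, against 4.34 ± 0.26 in sham (log2 change of 1.39 ± 0.17, adjusted p = 0.000345 after day-1 TAC and log2 change of 1.70 ± 0.17, adjusted p = 0.000178 after day-7 TAC). Lrp8, a receptor for reelin, had 141 to 492 reads with day-1 TAC and 96 to 238 with day-7 TAC, against 9 to 19 in sham. Il6ra (log2 change of -0.92 ± 0.17, adjusted p = 0.00245) and Cdh2 (log2 change of -0.51 ± 0.10, adjusted p = 0.003) were lower with day-1 TAC against sham, and Cdh5 was lower with day-7 TAC (log2 change of -0.33 ± 0.06, adjusted p = 0.00437). Between the TAC groups 1 of the 29 was called, Tnfrsf1b, a TNF receptor (log2 change of 0.77 ± 0.20, adjusted p = 0.0297). That was 3.45% of the 29, beside 16.7% of all tested genes.

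Other proteases of the matrix and the cell surface were described from a list of 24, of which 20 were tested. Against sham, 8 were higher and 3 lower with day-1 TAC, and 4 higher and 4 lower with day-7 TAC. As shares of the 20 these were 55% and 40%, beside 34.8% and 28.9% of all tested genes. Dpp4, a membrane dipeptidase, averaged 2.75 ± 0.09 with day-1 TAC and 3.57 ± 0.10 with day-7 TAC, against 4.13 ± 0.05 in sham, and was called in all 3 comparisons (log2 change of -1.38 ± 0.10, adjusted p = 6.6e-05 after day-1 TAC and log2 change of -0.57 ± 0.10, adjusted p = 0.00286 after day-7 TAC, and log2 change of -0.82 ± 0.10, adjusted p = 0.00128 between the TAC groups). Mme, or neprilysin, averaged 4.95 ± 0.22 with day-1 TAC and 3.40 ± 0.28 with day-7 TAC, against 4.45 ± 0.20 in sham. It was higher with day-1 TAC (log2 change of 0.50 ± 0.16, adjusted p = 0.0373) and lower with day-7 TAC (log2 change of -1.05 ± 0.16, adjusted p = 0.00152), and the difference between the TAC groups was called (log2 change of 1.55 ± 0.16, adjusted p = 0.000668). Prss23, a secreted serine protease, was higher in both (log2 change of 0.85 ± 0.13, adjusted p = 0.000977 after day-1 TAC and log2 change of 1.0 ± 0.13, adjusted p = 0.000569 after day-7 TAC), and the lysosomal cathepsins Ctsb (log2 change of 0.64 ± 0.09, adjusted p = 0.00254) and Ctsz (log2 change of 0.50 ± 0.09, adjusted p = 0.00656) were higher with day-1 TAC than with day-7 TAC.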

How the data were processed

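Left ventricle RNA of 9 libraries was analysed, 3 each of day-1 TAC, day-7 TAC and sham. Per the labels' protocols, messenger RNA was purified with Dynabeads mRNA DIRECT from total RNA, libraries were made with ScriptSeq v2 and sequenced single-end for 50 cycles. The submitters' processing notes name Trim Galore, STAR, edgeR and the build mm10. No version, annotation or rule for strand and multiply mapped reads is given in the sources used here. The table has 16710 rows of log2 expression deposited after TMM scaling by the authors, per the file headers. The 12 rows of 3 symbols that occur on several rows were left out. Taken out of the log, each library's values were whole multiples of its lowest value (to within 0.001), which was taken as 1 read; if the authors added a read before the log, each number is 1 too high. No raw counts were used, so the count-based test was not run. Columns were matched to groups by their header names; 2 sham columns carry the same header name, so sham replicate numbers follow column order only.

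Tests used limma 3.58.1 in R 4.3.3 with an intensity trend and a term for each group, over all 9 libraries, with p-values adjusted by Benjamini-Hochberg over the 13712 genes above 0 on the log2 scale in at least 3 libraries. The script was tested on simulated data. Levels per kilobase used the union of GENCODE M21 exons. Alternatives were 4 other scalings, no filter, a filter above 2, 2 reads added, no intensity trend, voom, only the 2 groups compared, each library left out, and, between the TAC groups, the replicate number as a block. Members called in at least 1 comparison were named with every library's value, as were the 6 most abundant of those called in none; of each pathway list up to 4 genes with the smallest p in a comparison were named. A few results that this rule or an overlap would name are not reported here. The members and lists were chosen with earlier results of these data known. In no pair of libraries of a group were the reads equal within sampling noise (chi-square per gene 10.3 to 30.2).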

Additional observations from a re-analysis of the deposited data

Results flagged for a closer look

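The difference between the TAC groups, tested with limma on the log2 scale as day-1 TAC minus day-7 TAC, passed the threshold for 10 members, and each is listed here because the difference from sham then differed between the TAC groups. Both effects share the sham libraries, so the TAC groups were compared directly. The 3 higher with day-1 TAC were Adamtsl2 (0.92), Timp1 (0.67) and Adam17 (0.34). The 7 lower with day-1 TAC were Timp4 (-1.86), Timp3 (-1.04), Adamts6 (-0.82), Adamts3 (-0.55), Adamts9 (-0.52), Mmp28 (-0.51) and Timp2 (-0.27). In each of the 10 all 3 day-1 TAC libraries lay on the same side of all 3 day-7 TAC libraries. This was also so for some members not called, such as Adamts14, and the share of all genes was not counted. Adamts6, Timp3 and Timp4 passed under all 20 alternatives, and the other 7 were lost under at least 1. Syn3, which shares 1733 exon bases with Timp3, also differed (log2 change -1.07, adjusted p = 0.00152), as did Iah1, which shares 311 with Adam17 (log2 change 0.36, adjusted p = 0.0227). A730049H05Rik, which shares 1381 with Adamts9, averaged -0.36 with day-1 TAC and 0.93 with day-7 TAC. It averaged above 0 only with day-7 TAC, so no test of it is given. In the same comparison 7 of 11 macrophage markers were higher with day-1 TAC (63.6% called, beside 16.7% of all tested genes), and their part in these differences was not tested.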

How the results depend on the processing

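Of the 52 member calls over the 3 comparisons, 39 held under every alternative tried (19 alternatives for each comparison with sham and 20 between the TAC groups), 13 were lost under at least 1, and 0 changed direction. With day-1 TAC against sham 20 of 22 held, all but Timp3 and Mmp11. With day-7 TAC against sham 16 of 20 held, all but Timp4, Adam33, Adamts4 and Adamtsl3. Between day-1 TAC and day-7 TAC 3 of 10 held. Leaving out each library in turn gave between 21 and 25 members called with day-1 TAC against sham, between 17 and 21 with day-7 TAC against sham, and between 4 and 10 between the TAC groups, where the count was 4 without day-7 TAC replicate 2 and 6 without replicate 1 of day-1 TAC and without replicate 1 or 3 of day-7 TAC. Between the TAC groups 6 members were called with no intensity trend; the cause was not tested. Under quantile normalization Timp3 was not called with day-1 TAC against sham (log2 change -0.48, adjusted p = 0.0579). Adam33 could not be fitted under the filter above 2, which left it out. Low counts limit the 10 members below the filter, of which Mmp9 and Mmp25 were called only with no filter.

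With the replicate number of the 6 TAC libraries as a block, 6 members were called between day-1 TAC and day-7 TAC, with 5 of the 10 among them. Same-numbered libraries did not deviate together: the correlations across genes of their deviations from the group means were -0.22, -0.11 and -0.04 for replicates 1, 2 and 3. For libraries with different numbers they lay between -0.17 and 0.23. The labels link same-numbered libraries by that number only, and whether they share a litter or batch cannot be told from these values. No paired analysis was possible for the comparisons with sham because 2 sham columns carry the same header name and no number can be given to each.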
